A study of Mus musculus with 2 samples.

Results

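The 5 genes described here are Egr1, Egr2 and Egr3, which encode early growth response (EGR) zinc finger transcription factors, and Nab1 and Nab2, which encode the NGFI-A binding proteins that repress through them. They were taken by gene symbol from the 32285 genes counted in each library, and all 5 were found. Their RNA was followed in single mouse CD8+ T cells, the killer lymphocytes of the immune system, with lymph node given as the source tissue. The study set out to compare such cells with and without what its title calls matrix electrical stimulation. It holds 1 library named HC and 1 named NC. The labels give no strain, age, treatment time or culture condition for either, and do not say which library was stimulated, so the groups are called by their names. With 1 library in each group no test between them is possible, no p-value is given, and a difference between HC and NC is a difference between these libraries.

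HC held 15495 barcodes and NC 14798, of which 13617 in HC and 13641 in NC were kept as cells with at least 500 genes, at least 1000 unique molecular identifiers (UMIs, each marking 1 captured RNA molecule) and at most 10% mitochondrial UMIs. Kept cells held 114430972 UMIs in HC and 115789139 in NC, which is 7425 for the median HC cell and 6898 for the median NC cell. The libraries shared 64 barcode sequences, 49 of them among kept cells. The labelled cell type fitted its markers, with Cd8a at 244 and Cd8b1 at 529 CPM (UMIs per 1000000 UMIs) in HC, against 354 and 568 CPM in NC, and Cd4 at 2 UMIs in HC and 1 in NC. All 5 B cell markers had UMIs, summing to 16.5 CPM in HC and 35.4 CPM in NC, with Igkc at 1.99 CPM in HC and 20.8 CPM in NC and Cd79b at 13.9 CPM in HC and 12.5 CPM in NC. The macrophage and monocyte list summed to 0.0961 CPM in HC and 3.70 CPM in NC. Lyz2 made up 416 of its 428 UMIs in NC and none of its 11 in HC, and C1qa, a defining gene of that list, had 0 UMIs in both. The part of these transcripts in the results below was not tested.

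EGR genes are immediate early genes: in a T cell whose antigen receptor is engaged, MAP kinases and calcium signals switch them on within a short time, without the need for newly made protein. EGR1 is linked to T cell activation, while EGR2 and EGR3 are known both for supporting proliferation and for holding T cells in check. NAB proteins bind a repression domain of the EGR factors, bring in chromatin-remodelling complexes, and can themselves be induced by EGR factors, which closes a feedback loop in several cell types.

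Sequences before the transcription starts are shown because the motifs of this loop can be read in them. RefSeq promoter entries (GRCm38.p6) were at hand for 3 of the 5 genes, Egr2 with 5 starts and Nab1 and Nab2 with 1 each, and the 250 bases before each start were searched on both strands. The motifs were the EGR sites GCGTGGGCG and GCGGGGGCG, the cyclic AMP response element TGACGTCA, and the CArG box, the site of serum response factor. No promoter sequence of Egr1 or Egr3 is shown. In the Egr2 window at chr10:67537619-67537868 (plus strand), capitals mark the CArG box, 72 bases before the start.
Egr2: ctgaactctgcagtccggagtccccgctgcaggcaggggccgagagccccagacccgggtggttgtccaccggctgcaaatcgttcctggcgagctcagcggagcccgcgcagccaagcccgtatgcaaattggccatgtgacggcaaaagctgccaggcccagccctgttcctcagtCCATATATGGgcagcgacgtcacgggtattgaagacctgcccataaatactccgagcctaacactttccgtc
A CArG box stood before 4 of the 5 Egr2 starts, 3 of which share the box printed above, and in 1.47% of all 32851 mouse promoter windows of this length. In the Nab1 window (minus strand), 3 EGR motifs were found, shown in capitals with 9 bases on either side. They lie at chr1:52500572-52500598, chr1:52500540-52500566 and chr1:52500469-52500495, and the first is read on the opposite strand. GENCODE vM21 places these 3 stretches inside a longer first exon of Nab1.
Nab1 site a: ccccgcggcCGCCCACGCcgggatctg
Nab1 site b: ctcggccgcGCGTGGGCGggagccgga
Nab1 site c: cggggcgggGCGGGGGCGgcggaggtg
GCGTGGGCG occurred in 0.536% and GCGGGGGCG in 2.57% of all windows. The Nab2 window held no exact match to these 4 motifs, and near matches were not searched for in any window. Its part outside annotated exons, chr10:127666711-127666900 (minus strand), is given for comparison.
Nab2: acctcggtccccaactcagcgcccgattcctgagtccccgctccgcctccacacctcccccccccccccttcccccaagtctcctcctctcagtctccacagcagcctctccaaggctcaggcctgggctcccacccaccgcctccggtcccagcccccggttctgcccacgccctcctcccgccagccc
A motif match describes these letters only, and its absence says nothing of sites elsewhere.

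Summed over all kept cells, the 3 EGR genes and Nab2 were lower in HC than in NC, and Nab1 was at nearly the same level in both. Egr2, at chr10:67535475-67542188, had 360 UMIs in HC and 701 in NC. That is 3.15 CPM in HC (95% interval 2.83 to 3.49) and 6.05 CPM in NC (5.61 to 6.52), a log2 ratio of HC over NC of -0.94 (-1.13 to -0.76). It passed the floor of 5 CPM, set for counting a gene as measured, only through NC. Intervals here and below cover counting error only, and say nothing of how cultures or animals vary.

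Egr3, at chr14:70077203-70082614, had 1476 UMIs in HC and 2286 in NC, or 12.9 CPM (12.2 to 13.6) in HC and 19.7 CPM (18.9 to 20.6) in NC, a log2 ratio of -0.61 (-0.71 to -0.52). Egr1, at chr18:34859823-34864984, had 3828 UMIs in HC and 4726 in NC, or 33.5 CPM (32.4 to 34.5) in HC and 40.8 CPM (39.7 to 42.0) in NC. Its log2 ratio was -0.29 (-0.35 to -0.23), the smallest difference of the 3 EGR genes. Egr4, the remaining EGR gene, had 9 UMIs in HC and 90 in NC, both far under the floor, with a log2 ratio of -3.30 (-4.48 to -2.32).

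The NAB genes parted. Nab2, at chr10:127660918-127668568, had 3938 UMIs in HC and 5529 in NC, or 34.4 CPM (33.3 to 35.5) in HC and 47.8 CPM (46.5 to 49.0) in NC, a log2 ratio of -0.47 (-0.53 to -0.41). Its 3′ end overlaps that of Stat6 on the other strand by 40 bases and its 5′ end overlaps Nemp1 by 1668 bases, and whether counting used the strand is not given in the sources used here. Stat6 stood at 37.7 CPM in HC and 38.1 CPM in NC, and Nemp1 at 14.7 CPM in HC and 12.7 CPM in NC. Nab1, at chr1:52457294-52500679, had 5377 UMIs in HC and 5252 in NC, or 47.0 CPM (45.7 to 48.3) in HC and 45.4 CPM (44.1 to 46.6) in NC, a log2 ratio of 0.051 whose interval holds 0.

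At least 1.5-fold was taken as the size of difference that is counted. Of the 5 genes, 2 reached it, Egr2 at 1.92-fold and Egr3 at 1.53-fold lower in HC, with Egr2 past the floor through NC alone. Of the 8704 genes that passed the floor, 168 (1.93%) were higher in HC by that size, 128 (1.47%) were higher in NC, and 296 (3.4%) differed by it in either direction. Over these genes the median log2 ratio was -0.029, and the middle 90% ran from -0.39 to 0.40. Egr2 and Egr3 had the 22nd and 101st lowest ratios, Nab2 the 272nd lowest and Egr1 the 843rd lowest.

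**Figure D1:**
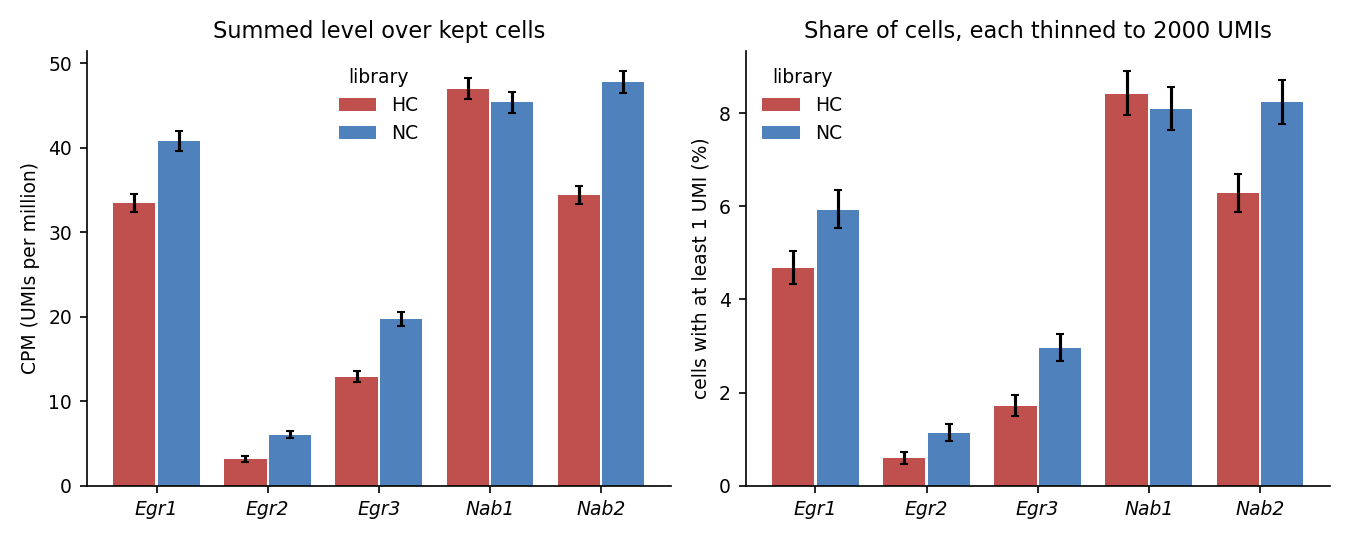
Summed level in CPM over all kept cells (left) and share of cells with at least 1 UMI after each cell was thinned to 2000 UMIs (right), for the 5 genes in HC and NC. Bars are the value of 1 library, and error bars are 95% counting intervals; Egr1, Egr2, Egr3 and Nab2 are lower in HC on both measures and Nab1 is not.

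The share of cells in which each gene was seen gave the same order of differences after thinning to 2000 UMIs. Because depth differs between cells, every cell was thinned to 2000 UMIs, which left 13523 cells in HC and 13508 in NC. Egr2 was then detected in 0.584% of HC cells (0.463 to 0.728) and 1.13% of NC cells (0.961 to 1.33). Egr3 was detected in 1.71% of HC cells (1.497 to 1.94) and 2.96% of NC cells (2.68 to 3.26). Egr1 was detected in 4.68% of HC cells (4.33 to 5.05) and 5.93% of NC cells (5.54 to 6.34). These intervals cover counting over the cells of 1 library each. How many of all genes have intervals that do not overlap was not counted, so overlap is not read as a result here.

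Nab2 was detected in 6.28% of thinned HC cells (5.88 to 6.70) and 8.23% of NC cells (7.77 to 8.71). Nab1 was detected in 8.42% of HC cells (7.95 to 8.90) and 8.08% of NC cells (7.63 to 8.56), and its intervals overlap. At full depth the shares were 12.4% in HC and 16.1% in NC for Egr1, 2.05% and 3.94% for Egr2, 4.94% and 8.39% for Egr3, 30.3% and 28.5% for Nab1, and 22.1% and 27.9% for Nab2. No group of cells that should lack these genes was large enough to measure free RNA, so the lowest share in any cluster of cells, given below, is the only limit on it.

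Cells positive for Egr1 or Egr3 held more molecules on average than cells positive for Egr2, Nab1 or Nab2. Positive cells averaged 2.27 Egr1 UMIs in HC and 2.16 in NC at full depth, with up to 18 in 1 HC cell and up to 21 in 1 NC cell. Cells with at least 5 Egr1 UMIs numbered 197 in HC and 227 in NC, or 1.45% and 1.66% of cells, yet they held 38.4% of all Egr1 UMIs in HC and 35.1% in NC. Egr3 averaged 2.20 UMIs a positive cell in HC and 1.998 in NC. The 71 HC and 98 NC cells with at least 5 held 37.5% of Egr3 UMIs in HC and 30.1% in NC. Most positive cells still had 1 UMI, at 55.8% in HC and 57.3% in NC for Egr1 and 59.97% in both for Egr3. Egr2 averaged 1.29 UMIs a positive cell in HC and 1.30 in NC, and no cell of either library had more than 5.

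Nab1 averaged 1.30 UMIs a positive cell in HC and 1.35 in NC, and Nab2 1.31 in HC and 1.46 in NC. The 1% of cells with the most Nab2 UMIs held 12.6% of them in HC and 11.6% in NC. The same measure for Egr3 was 52.8% in HC and 36.7% in NC, and for Egr1 30.4% in HC and 24.97% in NC. For Egr2, the gene with the fewest positive cells, it was 60.3% in HC and 42.7% in NC. This measure also rises where fewer cells are positive. In thinned cells the variance of Nab1 counts was 1.004 times the mean in HC and 1.02 times in NC, where 1 is the value of Poisson counts drawn at a single rate. For Nab2 this was 1.06 in HC and 1.07 in NC, and for Egr2 1.02 in HC and 1.05 in NC. It was 1.59 in HC and 1.63 in NC for Egr1, and 1.88 in HC and 1.41 in NC for Egr3.

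The EGR genes were detected together in the same cells far more often than independent detection would give. Egr1 and Egr3 were both seen in 91 HC and 116 NC cells after thinning, against 10.8 and 23.7 under independence. The ratio of observed to independent was 8.42 (6.78 to 10.3) in HC and 4.89 (4.04 to 5.87) in NC. Egr2 and Egr3 met in 23 HC and 32 NC cells, 17.0 times (10.8 to 25.6) and 7.06 times (4.83 to 9.97) the independent number. Egr1 and Egr2 met in 28 HC and 51 NC cells, 7.57 times (5.03 to 10.9) and 5.62 times (4.19 to 7.39). The ratio was higher in HC for all 3 EGR pairs. Its highest possible value rises as shares fall, and the shares of all 3 EGR genes were lower in HC. The part of this in the higher ratio was not tested.

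Read as shares of cells, Egr1 was found in 39.4% (33.0 to 46.0) of the 231 HC cells with Egr3 and in 4.08% of the HC cells without it. In NC it was found in 29.0% (24.6 to 33.7) of the 400 cells with Egr3 and in 5.23% of those without. Egr1 was also found in 35.4% of the 79 HC cells and 33.3% of the 153 NC cells with Egr2. Egr3 was found in 29.1% of HC and 20.9% of NC cells with Egr2. Read the other way, the libraries were closer or turned round: of cells with Egr1, 14.4% in HC and 14.5% in NC held Egr3, and 4.42% (2.96 to 6.33) in HC and 6.37% (4.78 to 8.29) in NC held Egr2. At least 1 EGR gene was seen in 814 HC cells, 6.02%, and in 1172 NC cells, 8.68%. At least 2 were seen in 116 HC cells, 0.858% (0.709 to 1.03), and in 165 NC cells, 1.22% (1.04 to 1.42), which is 7.37 times the independent number in HC and 4.49 times in NC. All 3 were seen in 13 HC and 17 NC cells, where fewer than 1 would be expected in either library.

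The EGR pairs were also read among cells of like depth. Computed within 5 equal groups of cells by depth, the ratios for Egr1 with Egr2, Egr1 with Egr3 and Egr2 with Egr3 were 7.19, 7.95 and 15.5 in HC and 5.49, 4.82 and 6.79 in NC. Computed within the clusters described below, they were 4.53, 5.39 and 7.33 in HC and 3.289, 3.084 and 3.2005 in NC. All 3 pairs met at over 3 times the independent number within clusters, 1 of which is led by genes that run with the EGR genes.

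**Figure D2:**
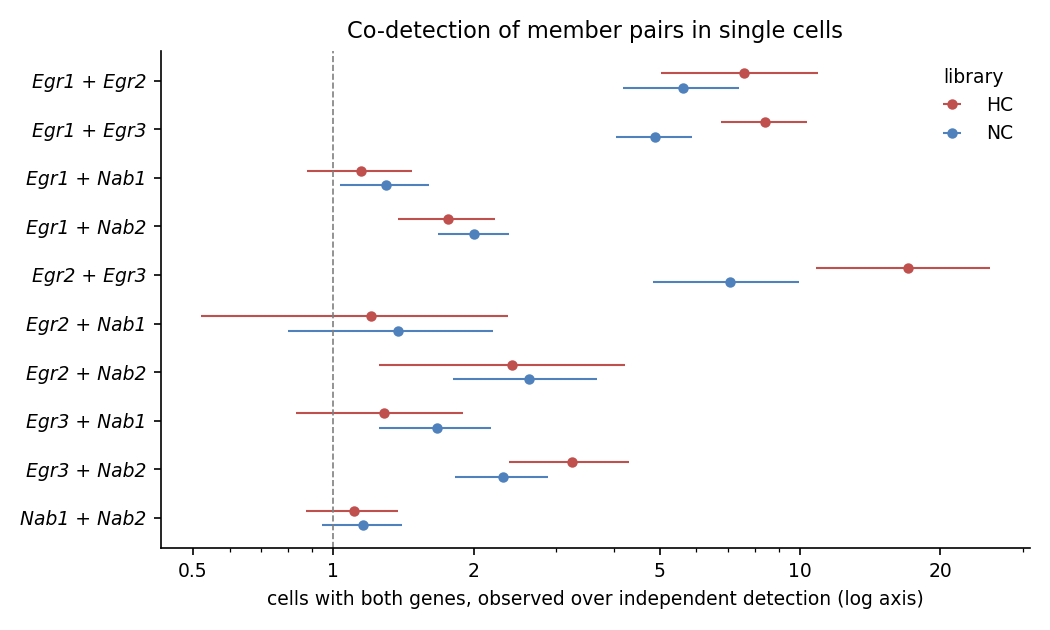
Number of cells in which both genes of a pair were detected, over the number that independent detection would give (log axis), for all 10 pairs of the 5 genes in HC and NC, each cell thinned to 2000 UMIs. Points are 1 library each, lines are 95% counting intervals and the dashed line marks independence; the 3 EGR pairs lie farthest to the right and pairs with Nab1 lie nearest the dashed line.

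Between repressors and EGR factors, the pairing was weaker and fell mainly on Nab2. Egr3 and Nab2 met in 47 HC and 76 NC cells, 3.24 times (2.38 to 4.31) and 2.31 times (1.82 to 2.89) the independent number. Egr2 and Nab2 met 2.42 times (1.25 to 4.23) as often in HC and 2.62 times (1.80 to 3.68) in NC, and Egr1 and Nab2 1.76 times (1.37 to 2.23) in HC and 2.002 times (1.67 to 2.37) in NC. All 6 of these intervals lie above 1. Nab1 met Egr1 at 1.15 times (0.876 to 1.47) the independent number in HC and 1.30 times (1.03 to 1.61) in NC. It met Egr3 at 1.29 times (0.832 to 1.90) in HC and 1.67 times (1.25 to 2.18) in NC, and Egr2 at 1.203 times (0.520 to 2.37) in HC and 1.37 times (0.801 to 2.20) in NC. Of these 6 intervals only those of Egr1 and Egr3 in NC lie above 1. Nab1 and Nab2 themselves met at 1.11 times (0.875 to 1.38) in HC and 1.16 times (0.945 to 1.40) in NC.

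Nab2 was more often seen the more EGR genes a cell showed. In HC it was found in 5.89% of cells with 0 EGR genes, 11.2% with 1, 17.5% with 2 and 38.5% with all 3, the last being 5 of 13 cells. In NC the shares were 7.47% with 0, 14.6% with 1, 25.7% with 2 and 35.3%, or 6 of 17 cells, with all 3. Over all cells with at least 1 EGR gene, Nab2 was found in 12.4% (10.2 to 14.9) in HC and 16.3% (14.2 to 18.5) in NC, 2.11 and 2.18 times its share in the other cells. Within clusters these ratios to the expected number were 1.77 in HC and 1.68 in NC. The Nab2 share was lower in HC both among cells with an EGR gene and among cells with 0. In the latter it was 5.89% (5.48 to 6.31) in HC and 7.47% (7.01 to 7.94) in NC. Other genes were not compared in this way, so the distance between these intervals is not read as a result.

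Nab1 differed less over cells with 0 to 2 EGR genes. It was found in 8.35% of HC cells with 0 EGR genes, 9.17% with 1 and 8.74% with 2, and in 7.81%, 10.6% and 12.2% of such NC cells. With all 3 it was found in 30.8% of HC cells, or 4 of 13 (9.09 to 61.4), and 23.5% of NC cells, or 4 of 17 (6.81 to 49.9). These shares are close to those of Nab2 in the same few cells, whose intervals were 13.9 to 68.4 in HC and 14.2 to 61.7 in NC. Over cells with at least 1 EGR gene it was found in 9.46% (7.54 to 11.7) in HC and 11.01% (9.27 to 12.9) in NC, 1.13 and 1.41 times its share in the other cells, and 1.07 and 1.28 times the number expected within clusters. Cells with EGR genes were also deeper before thinning than cells with 0, though in NC the median fell from 2 to 3 EGR genes. With 0, 1, 2 and 3 EGR genes, median depth was 7416, 8121.5, 8144 and 10172 UMIs in HC cells. In NC cells it was 6883.5, 7528, 8612.5 and 7989 UMIs. Within 5 equal groups of cells by depth, Nab2 met Egr1, Egr2 and Egr3 at 1.73, 2.38 and 3.13 times the independent number in HC. In NC these ratios were 1.99, 2.57 and 2.28. The part of depth in the gradient itself was not tested.

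**Figure D3:**
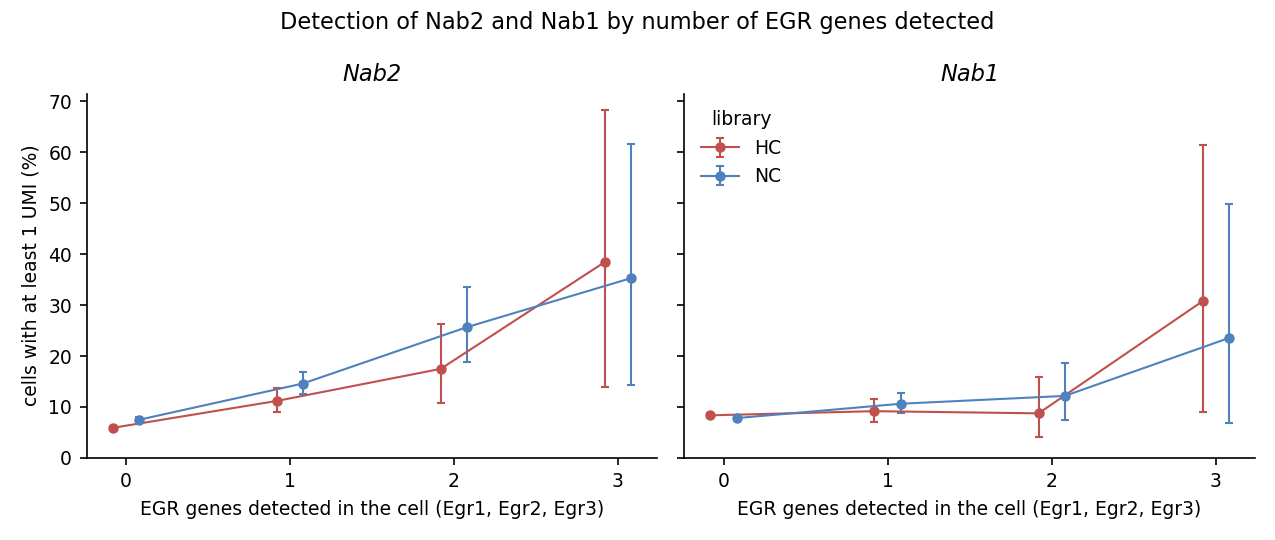
Share of cells with at least 1 Nab2 UMI (left) or Nab1 UMI (right) by the number of EGR genes detected in the same cell, for HC and NC, each cell thinned to 2000 UMIs. Points are 1 library each and bars are 95% Clopper-Pearson intervals; Nab2 climbs from 5.89% to 38.5% in HC and from 7.47% to 35.3% in NC, while Nab1 stays between 7.81% and 12.2% up to 2 EGR genes and stands at 30.8% in HC and 23.5% in NC with 3, on 13 and 17 cells.

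Cells with the orphan receptor gene Nr4a1, another immediate early gene, held Egr1 and Egr3 most often in both libraries among the 15 genes to which the members were compared. Egr1 was found in 35.3% of the 150 HC cells with Nr4a1 and 4.34% of those without it, and in 32.1% of the 221 NC cells with it and 5.49% of those without. Egr3 was found in 25.3% against 1.44% in HC and in 26.2% against 2.57% in NC. Egr2 was found in 8% against 0.501% in HC and in 9.95% against 0.986% in NC. Nab2 was found in 18.7% against 6.14% in HC and in 21.7% against 8.01% in NC. Among cells with Nr4a1, the counting intervals of HC and NC overlap for all 4 genes.

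Of cells with Ccl4, which encodes a chemokine that activated CD8+ T cells secrete, a larger share held Egr1 and Egr3 in HC than in NC. Egr1 was found in 31.2% (24.7 to 38.3) of the 189 HC cells with Ccl4 and in 15.8% (13.6 to 18.3) of the 973 NC cells with it. Egr3 was found in 22.8% of them in HC and 12.7% in NC. Cells with Ccl4 were fewer in HC, where Ccl4 itself was lower, so these sets of cells may not be alike. The part of this in the shares was not tested. Myc, a growth gene that activation also raises, went with 3.12 times the Egr3 share in HC and 3.37 times in NC. Cells with Mki67, a proliferation marker, had 1.08 times the Egr1 share of other cells in HC and 0.92 times in NC, and 1.36 times the Nab2 share in HC and 1.13 times in NC. Egr1 stood in cells with the granzyme gene Gzmb at 1.01 times its share elsewhere in HC and 0.82 times in NC. Egr3 was found less often in cells with Tcf7, a factor of naive and memory cells, at 0.61 times in HC and 0.86 times in NC. Cells with Bnip3, a gene induced by low oxygen, had 1.46 times the Egr1 share in HC and 0.64 times in NC, the NC value resting on 9 cells.

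Over 9581 genes seen in at least 1% of cells of both libraries, the genes whose counts ran most like those of Egr1 across cells were Nr4a1, Ccl4, Ier2, Dusp2 and Nr4a2, at mean Pearson correlations over both libraries of 0.187 to 0.115. For Egr3 they were Ccl4, Nr4a1, Nr4a2, Ccl3 and Tagap, at 0.240 to 0.139, and for Egr2 Ccl4, Nr4a1, Ccl3, Xcl1 and Tagap, at 0.130 to 0.087. Nab2 ran most like Nr4a1, Rgs16 and Ccl4, at 0.068 to 0.056, and Nab1 most like Zfp318, Ube2s and Tpm4, at 0.034 to 0.030. For comparison, 99% of genes had values under 0.0286 with Egr1 and 0.0302 with Egr3. Cells of 1 library share their depth and free RNA, counts are sparse and these values are small, so they describe an order and no more. Nab2 shares Nr4a1 and Ccl4 with the EGR genes in this ranking, and Nab1 shares none.

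Clustering cells of both libraries on genes other than these 5 gave 8 clusters, 6 of which held at least 200 cells of each library. The clusters are called by number and leading genes. The EGR genes stood highest in cluster 5, led by Ccl3, Ccl4, Xcl1, Rgs16 and Nr4a1, in both libraries. Egr1 stood there at 169 CPM in HC (150 to 189) and 127 CPM in NC (120 to 134), Egr3 at 116 CPM in HC (100 to 133) and 77.7 CPM in NC (72.2 to 83.4), and Egr2 at 24.2 CPM in HC (17.4 to 32.9) and 23.9 CPM in NC (20.9 to 27.1). In this cluster Egr1 and Egr3 were higher in HC, by log2 ratios of 0.41 (0.22 to 0.60) and 0.58 (0.34 to 0.81), and Egr2 differed by 0.022 (-0.49 to 0.51). Since the leading genes of the cluster are those that run with the EGR genes, the height of the EGR genes there is a description of the cluster and no separate finding.

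The lowest Egr1 levels were 16.7 CPM in HC and 23.6 CPM in NC, both in cluster 3, led by the sterol synthesis gene Idi1 and the cyclin gene Ccnb2. In HC, cluster 1, led by the interferon-inducible gene Iigp1 and by Cd7, followed at 18.7 CPM (16.4 to 21.2), within counting error of cluster 3. Then came cluster 4, led by Igkc and Rpgrip1, at 29.2 CPM, cluster 0, led by the mitotic genes Cenpf and Prc1, at 34.1 CPM, and cluster 2, led by Srm and Fabp5, at 37.1 CPM. The order in NC was the same, with 27.5, 33.9, 37.0 and 37.7 CPM in clusters 1, 4, 0 and 2, the last 2 within counting error of each other. Cluster 6, led by the low-oxygen genes Mgarp and Aldoc, had 727 HC cells and no NC cell, so it may be that library and not a cell state. Egr1 stood at 54.3 CPM there (47.8 to 61.4), second to cluster 5 in HC.

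Egr3 ran from 4.11 CPM in HC and 7.64 CPM in NC in cluster 1, and 5.44 CPM in HC and 7.21 CPM in NC in cluster 3, to 17.0 CPM in HC and 22.0 CPM in NC in cluster 2, the highest level outside cluster 5 in both. The lowest shares of thinned cells with a UMI limit what free RNA could give. They were 2.27% in HC and 3.84% in NC for Egr1, against 4.68% and 5.93% over all cells. The HC value rests on 5 of 220 cells of cluster 4, and its interval (0.742 to 5.22) holds the share over all cells. Cluster 1 followed in HC at 2.95% of 2578 cells (2.33 to 3.68). For Nab1 the lowest shares were 6.71% in HC and 6.74% in NC, against 8.42% and 8.08%. They were 0.582% in HC and 0.895% in NC for Egr3, and 0.233% in HC and 0.306% in NC for Egr2. They were 4.39% in HC and 5.82% in NC for Nab2, against 12.1% in HC and 14.4% in NC in cluster 5. Nab1 varied least, from 34.7 to 56.8 CPM over the 6 clusters in HC and from 36.5 to 54.1 CPM in NC. Its lowest level was in cluster 1 in both libraries. Nab2 ran from 24.9 CPM in HC and 34.1 CPM in NC in cluster 3 to 67.4 CPM in HC and 85.4 CPM in NC in cluster 5.

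**Figure D4:**
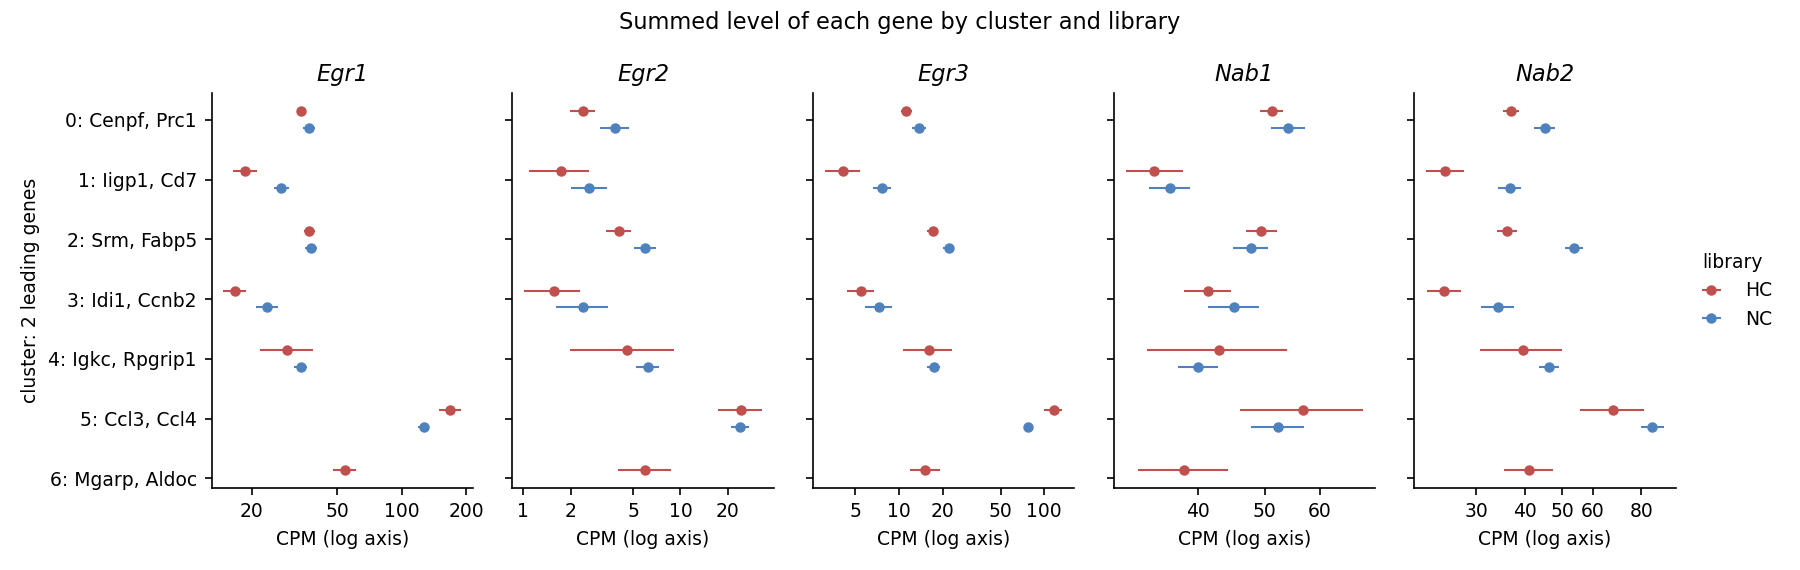
Summed level of each gene in CPM (log axis, its range differing between panels) in each cluster with at least 200 cells, for HC and NC, with clusters named by number and 2 leading genes. Points are 1 library each and lines are 95% Poisson intervals; the EGR genes peak in cluster 5 of both libraries, and Nab2 lies lower in HC in each of the 6 clusters that both libraries fill.

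Among the 5 genes, the lower level in HC within clusters was steadiest for Nab2. Its log2 ratio was below 0 in 6 of 6 clusters, from -0.57 to -0.23, and in 5 of them the counting interval lay below 0 too. The exception was cluster 4, with 238 HC cells. Egr1, Egr2 and Egr3 were each lower in HC in 5 of the 6 clusters, with cluster 5 the exception, at log2 ratios of -0.56 to 0.41, -0.68 to 0.022 and -0.89 to 0.58. The interval lay below 0 in 2, 2 and 3 clusters for Egr1, Egr2 and Egr3. Nab1 was lower in 3 and higher in 3 clusters, from -0.12 to 0.12, with every interval holding 0. How many of all genes show such counts of clusters or intervals was not counted. They describe these 5 genes beside each other and are not read as a result.

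Ccl4, a leading gene of cluster 5, itself stood at 19.9 CPM in HC and 105 CPM in NC over all cells. The size of that cluster follows genes that differ between the libraries, so it is given as a description only. Cluster 5 held 1.48% of all UMIs in HC and 8.43% in NC, and with them 7.45% of Egr1 UMIs in HC and 26.2% in NC, 11.4% of Egr2 UMIs in HC and 33.2% in NC, and 13.3% of Egr3 UMIs in HC and 33.2% in NC. It also held 2.89% of Nab2 UMIs in HC and 15.1% in NC. Of all cells with at least 2 EGR genes, 19.0% in HC and 46.1% in NC lay in it. Both libraries were then given the same cluster makeup, an alternative added after the data were seen. It used only clusters with at least 200 cells of each library, which held 94.4% of HC and 99.8% of NC cells and left out cluster 6. The log2 ratio of Egr1 became -0.066, that of Egr3 -0.082 and that of Egr2 -0.42, all closer to 0 than over all cells. That of Nab2 became -0.41, and that of Nab1 turned from 0.051 to -0.022. Cluster 5 is led by genes that run with the EGR genes, and the part of cluster makeup in their lower level in HC was not tested. At clustering resolution 2 and with the 5 genes among the variable genes, the equal-makeup ratio was 0.0044 and 0.078 for Egr1, 0.060 and 0.041 for Egr3, and -0.025 and -0.077 for Egr2. At resolution 2 the clusters used held 75.1% of HC and 70.6% of NC cells. The split into clusters depends on its random start. Over 20 starts the equal-makeup ratio ran from -0.46 to 0.076 for Egr1, -0.89 to -0.21 for Egr2, -0.67 to 0.13 for Egr3, -0.058 to 0.030 for Nab1 and -0.56 to -0.34 for Nab2. Nab2 was lower in HC in every cluster with at least 200 cells of each library in 18 of the 20 starts, Egr2 in 5, and Egr1 and Egr3 in 2 each. Genes beyond these 5 were not counted in this way.

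**Figure D5:**
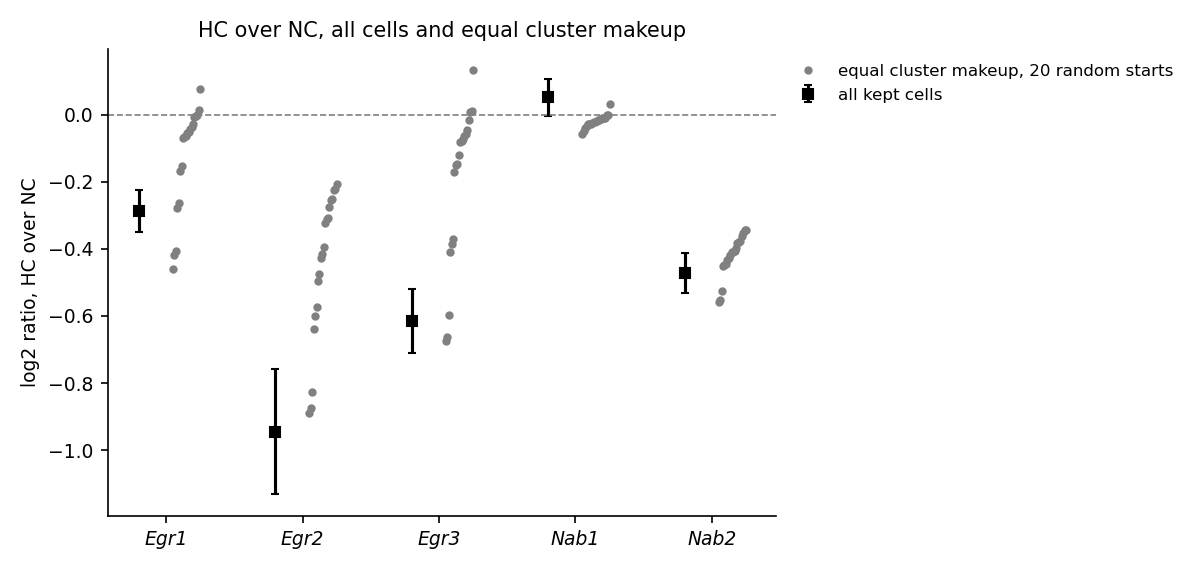
Log2 ratio of HC over NC for each gene over all kept cells (black squares, bars are 95% counting intervals) and with both libraries given the same cluster makeup, for 20 random starts of the clustering (grey points, sorted). Values for Nab2 stay between -0.56 and -0.34 under every start, while those of Egr1 and Egr3 spread from well below 0 to just above it.

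Genes that work before and after the EGR factors were read from lists chosen for their known roles, with earlier results of these data known. Of 15 factors and kinases that switch EGR genes on, listed under 17 symbols of which 2 are older names, 14 had at least 5 CPM, and 0 differed by 1.5-fold in either direction. Their median log2 ratio was -0.015, against -0.029 over all genes, with 7 above and 7 below 0. The largest differences were those of Srf, which encodes serum response factor, at 7.45 CPM in HC and 9.52 CPM in NC (-0.35), the MAP kinase gene Mapk3 (0.30), its activator Map2k1 (0.25) and Nfatc1, a calcium-driven factor (-0.25).

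Of 22 genes reported as EGR2 or EGR3 targets in T cells, 16 were measured, 5 of them at least 1.5-fold lower in HC and 0 higher, beside 1.47% and 1.93% of all genes measured, with a median of -0.13. The chemokine gene Xcl1 was at 31.9 CPM in HC and 304 CPM in NC (-3.26), the adhesion receptor gene Crtam at 6.95 and 22.7 CPM (-1.71), the calmodulin-binding protein gene Nrgn at 56.1 and 137 CPM (-1.29), and Id3, which encodes an inhibitor of E proteins, at 224 and 367 CPM (-0.71). The fifth was the co-stimulatory receptor gene Tnfrsf9 (-0.59), close to the limit. Xcl1 and Crtam are also leading genes of cluster 5, where the EGR genes stood highest, so this count is no separate finding. The highest ratio of the 16 was that of Cdkn1a (0.51), named after its value was seen, which encodes a cell cycle inhibitor.

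Of 23 other immediate early genes, 16 were measured, with 3 at least 1.5-fold lower in HC and 0 higher, beside 1.47% and 1.93% of all genes measured, and a median of -0.17. All 3 were NR4A receptor genes, with Nr4a2 at 11.4 CPM in HC and 22.5 CPM in NC (-0.98), Nr4a3 at 3.62 and 7.12 CPM (-0.98), past the floor through NC alone, and Nr4a1 at 6.99 and 10.97 CPM (-0.65). Nr4a1 and Nr4a2 are leading genes of cluster 5 too, so this count is no separate finding either. Ier3 stood at 32.4 CPM in HC and 22.7 CPM in NC (0.51). Among the 13 genes of the NuRD chromatin-remodelling complex, through which NAB proteins repress, all were measured, 0 differed by 1.5-fold and the median was -0.090. The largest differences were those of Chd3 (-0.32), Rbbp7 (-0.27), Mbd3 (-0.25) and Hdac2 (-0.21).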

How the data were processed

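Per the labels' protocols, the libraries are 10x 3′ v3.1. The deposited values are raw UMI counts per gene and barcode, not normalised. Per the file headers the matrices came from Cell Ranger 6.1.2. The submitters' processing notes list mm10 as the build, and as tools Seurat 3.2.3 and Cell Ranger 5.0.0. How the authors chose barcodes is not given in the sources used here, and every deposited barcode had at least 500 UMIs.

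Counts of kept cells were summed per library and divided by its total (CPM), with no pseudocount. Levels carry exact Poisson, shares Clopper-Pearson and ratios exact binomial 95% intervals. Doublets were not removed. Independent co-detection is the product of 2 shares. Shares after thinning left out 94 HC and 133 NC shallower cells. Leiden clusters (resolution 0.6) were drawn on 15 neighbours in 30 principal components of 2000 variable genes without the 5 members, taking the start of highest quality among 20. Equal makeup weights each cluster's CPM by its pooled UMIs, over clusters with at least 200 cells of each library only. The ratio and co-detection steps were tested on simulated data.

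The members, gene lists and partner genes were chosen with earlier results of these data known. Beside the members, the text names up to 4 genes of each list with the largest ratios (and Tnfrsf9 and Cdkn1a outside this rule), the 15 partner genes where informative, and the genes most correlated with each member (5 for EGR, 3 for NAB genes). Alternatives covered scaling (TMM from edgeR 4.0.16, size factors from DESeq2 1.42.0, for scaling only), cell weights, depth, cell filters, dividing cells and the CPM floor. Positions came from GENCODE vM21 (GRCm38) by gene identifier. Software was R 4.3.3 and Python 3.11.15 (leidenalg 0.10.2, scikit-learn 1.9.0, scipy 1.17.1, numpy 2.4.6, matplotlib 3.10.9, pandas 2.3.3).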

Additional observations from a re-analysis of the deposited data

How the results depend on the processing

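Under 9 alternatives each, Egr1, Egr2, Egr3 and Nab2 were lower in HC every time, while Nab1 was above 0 in 7 and below 0 in 2. Egr2 passed 1.5-fold in 8 of 9, Egr3 in 7, and Egr1 and Nab2 in 1 each. Egr3 fell short under the stricter cell filter, at -0.53, and at equal cluster makeup. With cells thinned to 2000 UMIs the log2 ratio was -0.35 for Egr1 and -0.41 for Nab2. Without cells holding a UMI of the dividing-cell genes Mki67, Top2a, Cdk1 or Ccnb1 (2617 HC and 3702 NC cells left), Egr1 was at -0.60, Nab1 at -0.12 and Nab2 at -0.60. At equal cluster makeup Egr1 was at -0.066, Egr2 at -0.42, Egr3 at -0.082, Nab1 at -0.022 and Nab2 at -0.41. The cause of these shifts was not tested. The share of cells with at least 2 EGR genes was 1.81% in HC and 2.93% in NC with cells thinned to 4000 UMIs, which leaves more molecules to be seen, at 5.20 and 3.72 times the independent number. Genes at least 1.5-fold higher numbered 1860 in HC and 1334 in NC with no CPM floor, and 69 in HC and 56 in NC with a floor of 20 CPM. Egr2 and Egr3, at 6.05 and 19.7 CPM in NC and lower in HC, lie under that floor, so neither is counted there. At resolution 1.2 and 2, and with the members among the variable genes, Nab2 was lower in HC in every cluster filled by both libraries, and its equal-makeup ratio was -0.43, -0.37 and -0.38. Under these 3 settings that ratio was -0.13, 0.0044 and 0.078 for Egr1, -0.38, -0.025 and -0.077 for Egr2, and -0.12, 0.060 and 0.041 for Egr3, so the EGR values there do not keep their size or, for Egr1 and Egr3, their sign.

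No paired analysis was possible because each group has 1 library. Differences between HC and NC therefore cannot be told apart from differences between cultures, animals or library preparations. Egr2 rests on few molecules, with 79 HC and 153 NC cells positive after thinning, so its pairs are the least precise.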

Other observations

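Per UMI, all 5 genes stood higher in the deepest than in the shallowest cells of both libraries. Over 5 equal groups of cells by UMIs, from the shallowest to the deepest, Nab1 stood at 36.6, 40.8, 46.5, 48.9 and 51.0 CPM in HC and at 39.4, 38.03, 42.0, 47.3 and 49.3 CPM in NC. Nab2 stood at 27.2, 31.0, 33.2, 35.0 and 37.7 CPM in HC and at 39.1, 39.8, 44.4, 46.3 and 54.4 CPM in NC, lower in HC in each group. Egr1 stood at 26.3, 22.8, 35.9, 35.1 and 37.0 CPM in HC and at 28.3, 37.7, 41.9, 46.5 and 40.8 CPM in NC. Egr3 stood at 8.87 CPM in the shallowest and 15.9 CPM in the deepest group in HC, and at 14.5 and 19.9 CPM in NC, and Egr2 at 2.92 and 3.67 CPM in HC and at 5.41 and 6.28 CPM in NC.

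Egr2 differed from the other EGR genes in cells with Ifng, which encodes the effector cytokine interferon gamma. In HC 1 of 36 such cells held Egr2, too few to read. In NC Egr2 was found in 14 of 116 such cells, 12.1%, which is 11.6 times its share in other NC cells. In those NC cells Egr1 stood at 1.90 times and Egr3 at 2.36 times its share elsewhere. This pair was singled out after its values were seen.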
